A study of Mus musculus with 6 samples.

Results

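The genes described are those of the proteins of the cytosolic ribosome in mouse heart. They were chosen by name: gene symbols that begin with Rpl or Rps followed by a digit, or with Rplp or Rpsa, without the S6 kinases (Rps6k) and without symbols that end in -ps, which mark pseudogenes. The rule found 89 of the 18005 listed genes, after 10 kinase and 8 pseudogene symbols were left out. Of the 89, 77 encode core proteins of the ribosome, 46 of the large and 31 of the small subunit. The other 12 are 8 paralogs, 3 copies whose names mark them as retrogenes or related to them, and Rps19bp1, which binds Rps19 and is not a ribosomal protein.

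RNA was sequenced from hearts of 3 old and 3 young mice. Both groups were labelled wild type and received no treatment, and the labels give neither the age in months nor the strain or sex. The series is titled as a study of cardiac hypertrophy in ageing. The hearts are named old 1 to old 3 and young 1 to young 3 after the numbers in their titles.

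A ribosome is made of ribosomal RNA and one copy of most of its proteins, so the genes of these proteins are usually expressed together and at high levels in every cell. In mammals their mRNAs begin with a run of pyrimidines, the 5′ terminal oligopyrimidine tract, through which the kinase mTOR and the RNA-binding protein Larp1 control how much they are translated. Heart and skeletal muscle also express Rpl3l, a paralog that takes the place of Rpl3 in part of the ribosomes.

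Because the pyrimidine run is the feature these mRNAs share, the stretch around the annotated start is shown for Rpl34, Rpl27a and Rpl7a, with long runs. It is also shown for Rps6 and for genes on which the results below turn. Rpl34, Rpl27a, Rpl7a and Rps6 were chosen after their values were seen. Each stretch is 30 bases, 5′ to 3′ on the gene's strand. The capitals mark the longest run of C and T that begins with C within 30 bases of the start, where the search ended.
Rpl34: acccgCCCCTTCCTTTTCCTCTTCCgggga
Rpl27a: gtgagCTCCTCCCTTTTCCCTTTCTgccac
Rpl7a: caattCCCTCTTCTTTCTTTCTCCagcagc
Rps6: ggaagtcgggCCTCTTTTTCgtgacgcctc
Rpl10a: aagcgctctgCCTTCTTTCCggtttccgcg
Rpl10: cccctggctgtaaCTCTatggttgttacag
Rpl27: cggaaccggaacgCTCTgttcctgtctgct
Rps27: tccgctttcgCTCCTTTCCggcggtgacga
Rps27l: cccgcctccaCTCCTCTCCactcctccccg
Rpl22: atatcagcgctgCTTCTggaatgttccagc
Rpl22l1: gcaagcccgttCTCTTCCCacggctgcagc
Rpl3l: tctgtcatttgaCCTCTggtgcctggtggg
The sequences are those of RefSeq on the GRCm38.p6 build, an older build than the GRCm39 of the submitters' processing notes. Rpl34 (chr3:130730330-130730359), Rps6 (chr4:86857349-86857378) and Rps27 (chr3:90213631-90213660) lie on the minus strand. The others lie on the plus strand: Rpl27a at chr7:109519186-109519215, Rpl7a at chr2:26910790-26910819, Rpl10a at chr17:28328572-28328601, Rpl10 at chrX:74270781-74270810, Rpl27 at chr11:101442220-101442249, Rps27l at chr9:66946054-66946083, Rpl22 at chr4:152324414-152324443, Rpl22l1 at chr3:28805500-28805529 and Rpl3l at chr17:24727823-24727852. They lie near the annotated start of transcription and hold promoter, 5′ untranslated sequence or both.

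Of the 89 genes, 68 were in the RefSeq promoter table. A run of at least 8 pyrimidines that begins with C was found within 30 bases of an annotated start in 31 of 57 core genes (54.4%) and in 5 of the 11 other genes (45.5%), against 22.2% of the 10266 tested genes with an entry and 20.6% of all 27025 genes in the table. Where a gene had several annotated starts, the one with the longest run was taken. The search ended 30 bases after the start, so a run that crossed this edge was counted only up to it. This was so for Rpl26 and Rpl37a, scored at 7 and 6 bases, where the pyrimidines continued beyond the edge. The run was 20 bases long in Rpl34 and Rpl27a, 9 bases in Rps27 and Rps27l, and 5 bases in Rpl22 and Rpl3l. The letters CCGGAAG, the core of the sequence that ETS factors bind, were searched on both strands of the 300-base windows from 250 bases before to 50 after the start. They were found in 24 of 57 core genes (42.1%), in 2 of the 11 other genes (18.2%), and in 19.4% of the tested genes with an entry. A match describes the letters of the window and is not evidence of binding.

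The ribosomal protein genes had nearly the same transcript levels in old and young hearts. Of the 87 that passed the filter on low counts, 0 were called by edgeR's quasi-likelihood test at an adjusted p under 0.05, while 22% of all 12893 genes tested were called, 11.4% higher and 10.6% lower in old hearts. Their log2 fold changes of old over young lay between -0.12 and 0.26, with a median of 0.049 against -0.006 for all genes. Of the 87, 60 were above 0 and 27 below.

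The changes were small in size as well as in number. The median of the absolute log2 fold change was 0.056 for the 87 genes and 0.20 for all genes tested. The 95% interval of the log2 fold change lay within -0.5 and 0.5 for 77 of 77 core genes and for 85 of the 87 (97.7%), against 53.4% of all genes. Precision rises with the count, so the genes were also set beside the 2262 genes with a mean log2 CPM (counts scaled to a common library total) of at least 6.3, the level of the lowest core gene. Of these abundant genes 26.8% were called, their median absolute log2 fold change was 0.16 and their median 0.074, with 1417 above 0 and 845 below, and 74.3% had an interval within the same bounds.

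In edgeR 1 of the 87 genes, Rpl7l1, had an unadjusted p under 0.05, against 4642 of all 12893 genes tested. DESeq2 and limma-voom each called 0 and had 2 genes at an unadjusted p under 0.05. Over all genes limma-voom called 2833 of 12893. DESeq2 was run without the filter, on 89 members among 16964 genes, and called 2288 of these. The count of all genes at an unadjusted p under 0.05 was not taken in either. The CPM values in old and young hearts did not overlap for 2 of the 87 genes, Rpl3l and Rpl7l1, against 39.9% of all genes tested. For both, each old heart was above each young heart. The median log2 fold change was 0.048 for the 46 large and 0.022 for the 31 small subunit core genes.

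The count of 0 and the median both rest on 3 hearts per group, and single young hearts moved them. Without young 2 the median was 0.13, 84 of 87 genes were above 0 and edgeR called 2, Rps27l and Rps19bp1. In this setting 2450 of all 13078 genes tested were called. An unadjusted p under 0.05 was found for 18 of the 87 genes, and no count over all genes was taken beside it. Without young 3 the median was -0.027, 59 of 87 genes were below 0 and 0 were called. The median was also below 0, at -0.029, when counts were scaled by library size alone, and it was -0.024 on the deposited FPKM values. Over all genes, leaving out young 1 gave 1557 calls and leaving out young 3 gave 1552, against 2835 with all hearts. Under library size alone 1032 genes were called higher and 2122 lower, and with upper-quartile factors 1206 higher and 1796 lower, against 1467 higher and 1368 lower under TMM scaling, the default of edgeR.

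**Figure D1:**
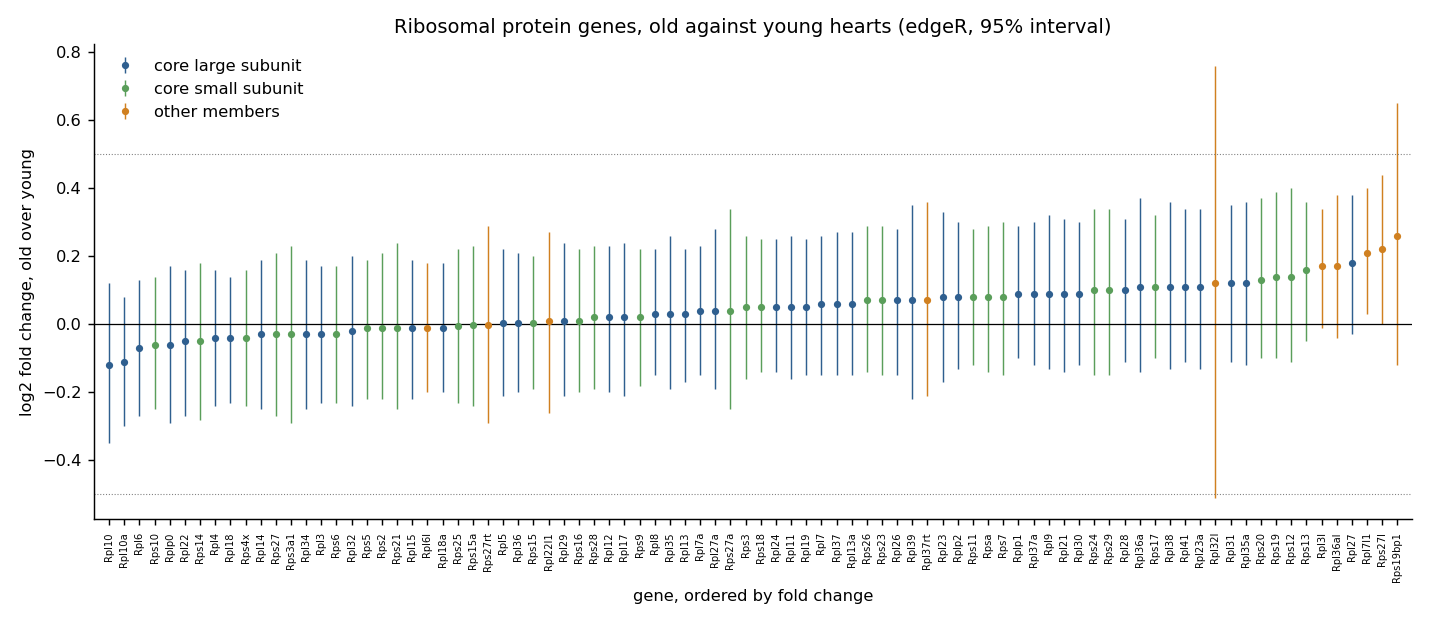
Log2 fold change of old over young hearts (vertical axis) for 86 of the 87 tested ribosomal protein genes, ordered by fold change along the horizontal axis. Points are edgeR estimates and bars their 95% intervals, coloured by class, and dotted lines mark -0.5 and 0.5. The 76 core genes shown lie between -0.12 and 0.18 with intervals inside the dotted lines. The bars of Rpl32l and Rps19bp1 pass the upper line, and that of Rpl32l also passes the lower line, reaching -0.51.

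The members at the low end of the fold changes were core genes. Rpl10 encodes a protein that joins the large subunit late in its assembly. It had 417.53, 369.24 and 391.02 CPM in old 1 to old 3, against 425.30, 488.28 and 364.77 CPM in young 1 to young 3. The groups overlapped, with young 2 the highest and young 3 the lowest of the 6. The log2 fold change was -0.12 ± 0.11 (SE, edgeR adjusted p = 0.46). Rpl10a, the protein of the L1 stalk that contacts tRNA leaving the ribosome, averaged 379.8 ± 9.01 CPM in old and 409.1 ± 34.8 CPM in young hearts (SD, n = 3 each). Its log2 fold change was -0.11 ± 0.09 (SE, edgeR adjusted p = 0.40).

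The 5 highest fold changes were those of 4 genes that are not core and of 1 core gene. Rpl27, a protein of the large subunit, was the highest core gene, with 212.57, 210.59 and 226.10 CPM in old hearts, against 182.08, 216.82 and 175.85 CPM in young hearts. Young 2 lay among the old hearts, and the log2 fold change was 0.18 ± 0.09 (SE, edgeR adjusted p = 0.20). Rps19bp1 had 9.65, 10.72 and 10.92 CPM in old hearts, against 7.81, 11.42 and 6.97 CPM in young hearts. Its log2 fold change of 0.26 ± 0.18 was the highest of the 87 (SE, edgeR adjusted p = 0.31), and young 2 was the highest of the 6 hearts. Without young 2 it was 0.50 and was called.

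The genes of the ribosomal stalk, which recruits the elongation factors, were described whatever their result. Rplp0, the base of the stalk, had 1748.49, 1685.38 and 1469.28 CPM in old hearts, against 1614.62, 1942.13 and 1542.07 CPM in young hearts. Rplp1, which binds Rplp0 as a dimer with Rplp2, had 1233.74, 1196.72 and 1338.59 CPM in old hearts, against 1160.74, 1282.80 and 1088.91 CPM in young hearts. Rplp2 had 487.39, 493.50 and 563.92 CPM in old hearts, against 465.90, 544.68 and 447.36 CPM in young hearts. The groups overlapped for each of them. Rplp0 was lowest in old 3, where Rplp1 and Rplp2 were highest among the old hearts. Their log2 fold changes were -0.06 ± 0.11, 0.09 ± 0.09 and 0.08 ± 0.10 (SE, edgeR adjusted p = 0.73, 0.48 and 0.57). Rpsa, a small subunit protein that was also described as a laminin receptor, averaged 1003 ± 56.2 CPM in old and 952 ± 116 CPM in young hearts (SD, n = 3 each; log2 fold change 0.08 ± 0.10, edgeR adjusted p = 0.62).

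Several core genes with roles beyond the ribosome were looked up after the values were seen. Rps6, the protein that S6 kinases phosphorylate, had 548.39, 511.99 and 511.14 CPM in old hearts, against 530.87, 594.84 and 479.79 CPM in young hearts. Its log2 fold change was -0.03 ± 0.09 (SE, edgeR adjusted p = 0.84). Rpl5 and Rpl11, which bind the 5S ribosomal RNA and, when free, the p53 regulator Mdm2, had log2 fold changes of 0.004 ± 0.10 and 0.05 ± 0.09. Rps19, mutated in human Diamond-Blackfan anaemia, averaged 273.5 ± 13.4 CPM in old and 247.5 ± 40.9 CPM in young hearts. Rps27a, made as a fusion to ubiquitin, had a log2 fold change of 0.04 ± 0.14. The spread among young hearts was the wider one for each of these 5 genes and the groups overlapped. Among housekeeping controls often used for normalization, Rpl13a averaged 752.5 ± 33.9 CPM in old and 721.5 ± 80.8 CPM in young hearts, and Rps18 averaged 417.2 ± 17.8 CPM in old and 401.6 ± 34.5 CPM in young hearts.

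The muscle paralog Rpl3l averaged 192.8 FPKM in old and 181.7 FPKM in young hearts, near the 222.6 FPKM of Rpl3 in old and its 240.0 FPKM in young hearts (FPKM divides a count by the gene's length and by the library total). The CPM values of Rpl3l in old hearts lay above those in young hearts, by an amount that did not pass the test. The FPKM values, which are not TMM scaled, overlapped, with 185.57 in old 1 and 187.84 in young 2. Rpl3l had 349.10, 375.63 and 366.50 CPM in old hearts, against 321.38, 341.65 and 310.21 CPM in young hearts. Its log2 fold change was 0.17 ± 0.08 (SE, edgeR adjusted p = 0.16). Rpl3 had 372.65, 337.01 and 343.53 CPM in old hearts, against 362.37, 391.20 and 321.51 CPM in young hearts, with overlap (log2 fold change -0.03 ± 0.09, SE, edgeR adjusted p = 0.85). Rpl3l was highest in old 2, the old heart in which Rpl3 was lowest.

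Per gene length, Rpl3l made up 43.93%, 48.25% and 47.15% of the summed FPKM of Rpl3 and Rpl3l in old hearts, against 42.59%, 42.21% and 44.66% in young hearts. The means were 46.44% ± 2.24 in old and 43.15% ± 1.32 in young hearts (SD, n = 3 each), a difference of 3.29 percentage points (exact 2-sided permutation p = 0.2, where the smallest possible is 0.1). Old 1 lay below young 3, so the groups overlapped. The share of counts gave a difference of 3.32 points with the same exact permutation p. Skeletal muscle expresses Rpl3l too. The summed level of 7 skeletal muscle markers was 3.099 to 4.407 CPM in old hearts, against 1.796, 2.284 and 31.73 CPM in young 1, young 2 and young 3, and the part of these cells in the Rpl3l values was not tested. Young 3 had the lowest Rpl3l in CPM of the 6 hearts and the highest Rpl3l share among the young hearts.

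The other paralogs made up smaller shares of their pair. Rpl22l1, the paralog of Rpl22, took 28.38% ± 0.142 of the pair's FPKM in old and 27.46% ± 1.17 in young hearts. Rps27l, the paralog of Rps27 and in human cells a target of p53, took 3.196% ± 0.411 in old and 2.69% ± 0.126 in young hearts. Rpl36al, which differs little from Rpl36a, took 32.19% ± 1.46 in old and 31.38% ± 0.974 in young hearts (SD, n = 3 each). The exact 2-sided permutation p was 0.1, 0.2 and 0.5. Over the 4 pairs tested, Rpl3 and Rpl3l included, the adjusted values were 0.267 for 3 pairs and 0.5 for Rpl36al, so 0 of the 4 shares passed the test, which cannot reach 0.05 with 3 hearts against 3. The shares of Rpl22l1 did not overlap, with a lowest value of 28.26% in old and a highest of 28.24% in young hearts.

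**Figure D2:**
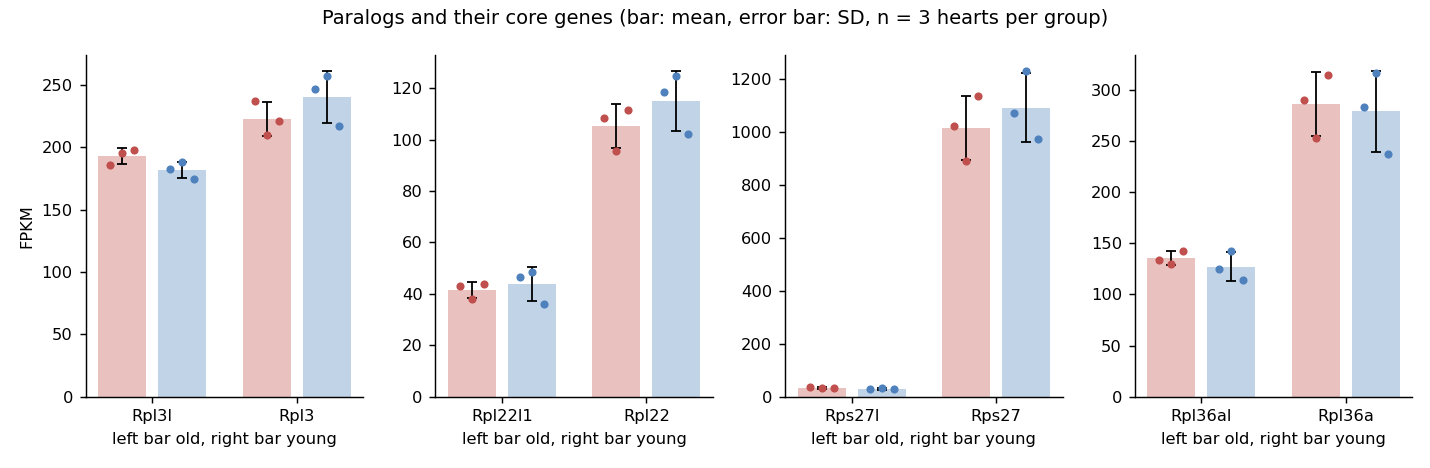
FPKM (vertical axis, separate scales) of 4 paralogs beside their core genes, with the old hearts as the left and the young hearts as the right bar of each gene. Bars are means, error bars SD and points single hearts (n = 3 each). Rpl3l stands near Rpl3, while Rps27l is 3.196% of its pair in old and 2.69% in young hearts.

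As single genes the paralogs were read from the same fit. Rps27l had 80.21, 71.03 and 69.07 CPM in old hearts, against 58.25, 72.13 and 58.82 CPM in young hearts, where young 2 was above 2 of the old hearts. The log2 fold change was 0.22 ± 0.10 (SE, edgeR adjusted p = 0.14), and without young 2 it was 0.33 and was called. Rpl7l1, the paralog of Rpl7, had 63.30, 60.23 and 58.24 CPM in old hearts, against 51.14, 56.84 and 48.84 CPM in young hearts. Its log2 fold change of 0.21 ± 0.09 had the smallest p of the 87 (SE, edgeR adjusted p = 0.094). Rpl7 itself averaged 541.5 ± 6.09 CPM in old and 520.7 ± 58.3 CPM in young hearts (SD, n = 3 each). Rpl36al averaged 71.93 ± 2.43 CPM in old and 64.01 ± 8.03 CPM in young hearts, and Rpl22l1 averaged 20.93 ± 1.22 CPM in old and 20.84 ± 3.34 CPM in young hearts. Core genes that have a paralog lay within the range of the others, with log2 fold changes of -0.05 ± 0.10 for Rpl22, -0.03 ± 0.11 for Rps27, 0.11 ± 0.12 for Rpl36a, 0.07 ± 0.13 for Rpl39 and -0.04 ± 0.09 for Rps4x (SE).

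Members that passed the filter at low levels varied more between hearts than they differed between groups. Rpl32l had 1.77, 1.56 and 2.60 CPM in old hearts, against 1.64, 2.28 and 1.55 CPM in young hearts. Rps27rt averaged 7.904 ± 0.267 CPM in old and 7.920 ± 0.533 CPM in young hearts (SD, n = 3 each). The remaining 2 of the 89 genes did not pass the filter. Rpl39l, the paralog of Rpl39, had 4, 3 and 6 counts in old hearts, against 2, 1 and 9 counts in young hearts. Rps23rg1 had 4, 2 and 3 counts in old hearts, against 0, 1 and 0 counts in young hearts, at which depth no change can be read. Without a filter, limma on log2(FPKM + 1) called it. Ribosomal protein genes have many near-identical copies in the genome, so the split of reads between a gene, its paralogs and its copies is uncertain, as is any overlap with antisense genes, since the strand setting of the counting is not given in the sources used here.

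The level of the whole block varied from heart to heart. For each heart the median over the 87 genes of the log2 difference from the young mean was 0.08, -0.02 and 0.09 in old 1 to old 3, against -0.02, 0.18 and -0.16 in young 1 to young 3. The same median over all tested genes stayed between -0.006 and 0.007. TMM scaling sets the bulk of genes near 0 in each heart, so this was largely fixed by the scaling. Every one of the 87 genes was higher in young 2 than in young 3, with a median difference of 0.34 on the log2 scale. Of all tested genes 47.6% were higher in young 2, a share that also follows largely from the scaling. Young 2 had the highest of the 6 values for 70 of the 87 genes, and young 3 had the lowest for 78. Among the old hearts, 78 of the 87 genes were higher in old 1 than in old 2, and 68 were higher in old 3 than in old 2.

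Within a heart the members kept close to their common shift. The median absolute deviation of a member from its heart's median was 0.037 on the log2 scale. The median SD of a member among the hearts was 0.071 in old and 0.17 in young hearts, against 0.14 in old and 0.11 in young hearts over all tested genes. By this measure the members were more even than the median gene among old hearts and less even among young hearts. It was not matched for abundance: the median log2 CPM was 8.56 for the members and 4.51 for all tested genes. Precision rises with the count, and 0.1 CPM was added to the values of all genes alone. The summed level of 5 red cell markers was 3191, 6797 and 4353 CPM in old 1 to old 3, against 2160, 16070 and 8675 CPM in young 1 to young 3. It was highest in young 2, where the members were highest, and second highest in young 3, where they were lowest, and its part in the shift was not tested.

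**Figure D3:**
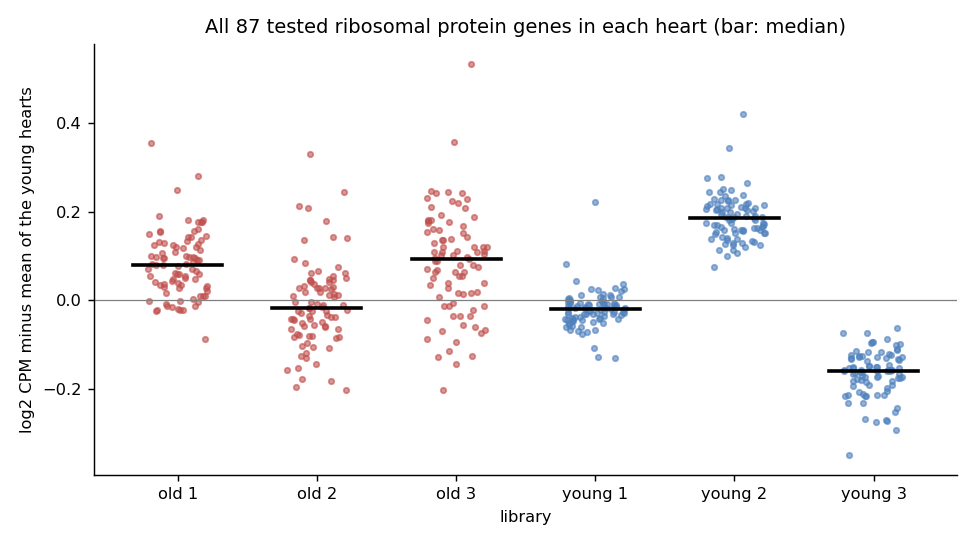
Log2 CPM of each of the 87 tested ribosomal protein genes minus its mean in young hearts (vertical axis), in 6 hearts (horizontal axis). Points are genes and bars medians. The medians are 0.08, -0.02 and 0.09 in old hearts and -0.02, 0.18 and -0.16 in young hearts, and each of the 87 genes is higher in young 2 than in young 3.

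When counts were scaled to the summed counts of the core genes themselves, so that a member was compared with the rest of its block, 0 of the 87 genes were called by edgeR and 0 had an unadjusted p under 0.05, against 10.7% of all genes called. The log2 fold changes then lay between -0.15 and 0.24. This scaling was chosen after seeing the data. It centres the core genes near 0 by construction, so it cannot show a shift of the block as a whole. The median SE over all genes was 0.15, against 0.11 in the main fit, so the 10.7% is not a like background.

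As a share of all counts, the 89 genes took 3.694%, 3.419% and 3.699% in old hearts, against 3.698%, 4.118% and 3.352% in young hearts. The means were 3.604% ± 0.16 in old and 3.722% ± 0.384 in young hearts (SD, n = 3 each), a difference of -0.119 percentage points (exact 2-sided permutation p = 0.8). Young 2 and young 3 bracketed the old hearts. Against the TMM effective library size the difference was 0.0794 points, and without young 2 it was 0.0791 points, so its sign depends on the scaling and on 1 heart. In FPKM, which divides by gene length, the share was 8.684% ± 0.323 in old and 9.247% ± 0.556 in young hearts (exact 2-sided permutation p = 0.3). In bulk tissue, fewer cells of a type and less RNA per cell cannot be told apart.

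Per gene length the core genes were among the most abundant transcripts of the heart. Of the 77, 72 were among the 500 genes of highest mean FPKM. Their median was 512.2 FPKM, against 5.752 FPKM over all tested genes, with quartiles of 295.1 and 755.5 FPKM, and 55 of 77 lay within 2-fold of the median. Small subunit genes had a median of 601.5 FPKM and large subunit genes one of 409.2 FPKM.

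At the top stood 3 short transcripts. Rplp1 had 2568.59, 2440.49 and 2823.72 FPKM in old hearts, against 2584.02, 2762.29 and 2402.27 FPKM in young hearts. Rpl41, the smallest protein of the ribosome, had 1899.55, 1735.94 and 1850.99 FPKM in old hearts, against 1724.79, 2022.25 and 1599.63 FPKM in young hearts. Rps29, a zinc-binding protein of the small subunit, averaged 1604 FPKM in old and 1582 FPKM in young hearts. Rplp1 lay above both in every heart, and Rpl41 lay above Rps29 in every heart. At the bottom of the core genes, Rpl21 averaged 43.42 FPKM in old and 43.16 FPKM in young hearts. The next lowest were Rps15a and Rps20 with a mean of 69.53 and 97.76 FPKM over the 6 hearts. Their gene lengths, worked out from the deposited counts and FPKM values, were 5136 and 3446 bases. The median length of the core genes was 795 bases, and a greater length lowers the FPKM. Across the 87 genes the log2 fold change and log2 length had a Pearson r of -0.07, and across all tested genes -0.17. Genes share the 6 libraries and are not independent replicates.

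**Figure D4:**
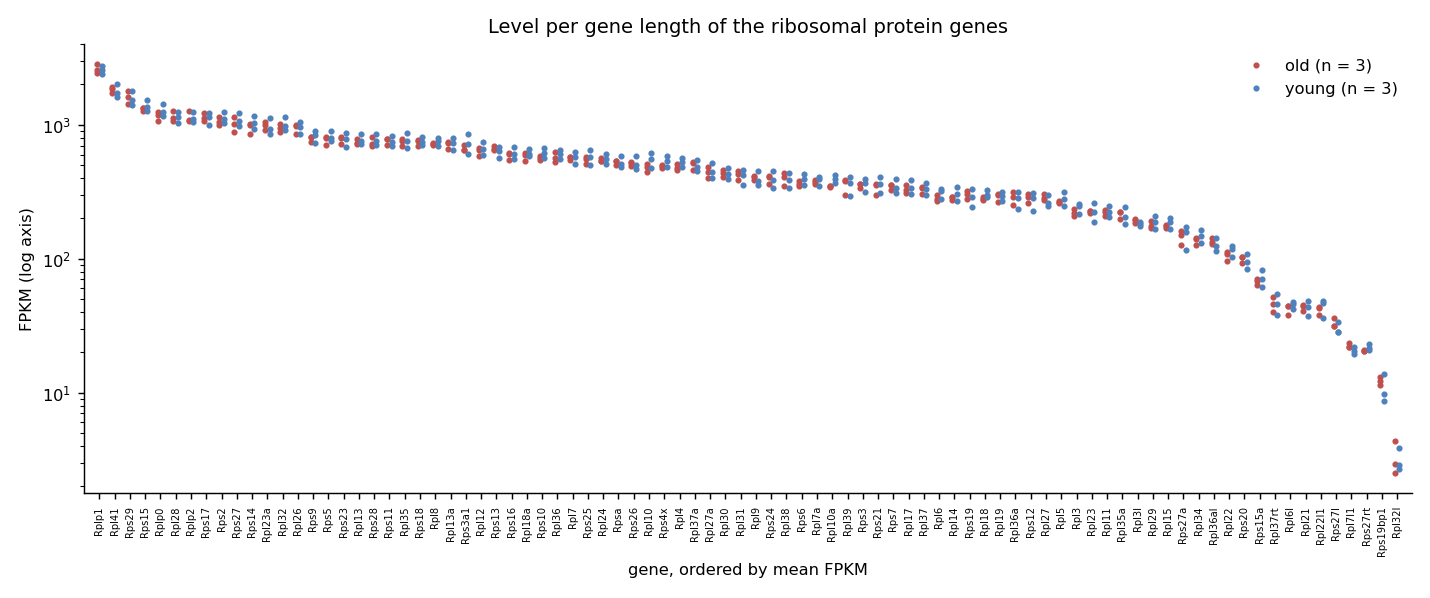
FPKM on a log axis (vertical) of 86 of the 87 tested ribosomal protein genes, ordered by mean FPKM (horizontal), with old hearts left of young hearts in each column (points, n = 3 each). Rplp1 stands highest with a mean of 2597 FPKM, the core genes reach down to 43.29 FPKM, and old and young points of a gene lie on top of each other at this scale.

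The pyrimidine run did not separate members by their fold change. The median log2 fold change was 0.04 in the 31 core genes with a run of at least 8 bases and 0.05 in the 26 without. The ranges were -0.11 to 0.14 and -0.12 to 0.18. Rpl26 and Rpl37a, whose runs were cut at the edge of the search, were counted among those without. It was 0.05 in the 24 core genes with the letters CCGGAAG and 0.03 in the 33 without. Rpl10a and Rps6, shown above with runs of 10 bases, had values of -0.11 and -0.03, and Rpl10 and Rpl27, with runs of 4 bases, had values of -0.12 and 0.18.

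Fau and Rack1 are ribosomal proteins whose names fall outside the rule, and neither was called by edgeR or by DESeq2. Fau, made as a fusion with a ubiquitin-like protein, differed by 0.03 ± 0.09 on the log2 scale (SE, edgeR adjusted p = 0.84). Rack1, a scaffold on the small subunit, averaged 803.9 ± 27.8 CPM in old and 886.3 ± 82.0 CPM in young hearts (SD, n = 3 each), that is -0.14 ± 0.09 as log2 fold change (edgeR adjusted p = 0.28).

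Other gene lists of ribosomes and translation were read from the same fit, beside the 22% of all genes called, 11.4% higher and 10.6% lower. Of the 78 proteins of the mitochondrial ribosome, which is built from separate genes, 24 (30.8%) rose in old hearts and 0 fell. Of the abundant genes 18.3% were called higher. That set is not matched to the mitochondrial proteins, with a median log2 CPM of 7.19 against their 5.91. The median log2 fold change of the 78 was 0.21. Under library size alone 17 were called higher and 1 lower, with a median of 0.132. Mrpl16 averaged 84.19 ± 5.67 CPM in old and 59.26 ± 0.453 CPM in young hearts (SD, n = 3 each), that is 0.51 ± 0.08 as log2 fold change (SE, edgeR adjusted p = 0.0012). The count of called genes was 10 without young 1 or without young 3 and 31 without young 2. Mrpl16, Mrpl46, Mrps22, Mrpl35, Mrps34 and Mrpl14 were called whichever heart was left out. The difference between mitochondrial and cytosolic ribosomal proteins was not tested as such.

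Of 75 genes of ribosome biogenesis, 4 rose and 8 fell, and the median log2 fold change was -0.075. The 16.0% called, 5.33% higher and 10.7% lower, was no more than the 22% of all genes. Polr1e, a subunit of RNA polymerase I, which transcribes ribosomal RNA, had 19.57, 20.48 and 14.13 CPM in old hearts, against 34.51, 36.11 and 34.36 CPM in young hearts. It fell by 0.95 on the log2 scale (SE 0.12, edgeR adjusted p = 0.00028), and the call held whichever heart was left out. Other calls depended on the hearts: without young 1 or without young 3, 1 gene of the list was called higher and 2 lower. Under library size alone 3 were called higher and 15 lower.

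Of 38 initiation factor genes, 4 rose and 1 fell, with a median of 0.027. The 13.2% called was below the 22% of all genes and the 26.8% of abundant genes. Eif4a1, the helicase that unwinds the 5′ end of mRNAs, averaged 243.8 ± 10.4 CPM in old and 182.6 ± 7.97 CPM in young hearts, that is 0.42 ± 0.08 as log2 fold change (SE, edgeR adjusted p = 0.0039). Its partner Eif4b averaged 287.5 ± 7.44 CPM in old and 365.0 ± 17.8 CPM in young hearts, that is -0.34 ± 0.08 as log2 fold change (edgeR adjusted p = 0.010). Both calls held whichever heart was left out. The count of genes called higher was 1 without young 1 or without young 3. Under library size alone 2 were called higher and 6 lower.

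Of 17 genes of elongation, termination and other mRNAs known to carry the pyrimidine tract, 2 rose and 4 fell, with a median of -0.018. The share called was 35.3%, 11.8% higher and 23.5% lower, against 11.4% higher and 10.6% lower over all genes. Pabpc4, a poly(A) binding protein, averaged 332.1 ± 59.8 CPM in old and 488.0 ± 42.1 CPM in young hearts (SD, n = 3 each), that is -0.56 ± 0.12 as log2 fold change (SE, edgeR adjusted p = 0.0086), and was called whichever heart was left out. Eef1a2, the form of the aminoacyl-tRNA carrier found in muscle and neurons, had 1852.52, 1924.22 and 1775.55 CPM in old hearts, against 2466.63, 2345.10 and 2319.53 CPM in young hearts. It fell by 0.36 on the log2 scale (SE 0.08, edgeR adjusted p = 0.0076), and without young 1 it was not called. Eef2, which moves the ribosome along the mRNA, fell by 0.28 on the log2 scale, and its call was lost without old 1, old 3, young 1 or young 3. In the list 0 genes were called higher and 1 lower without young 1, and 0 and 5 under library size alone.

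Of 24 genes of mTOR signalling and translational control, 1 rose and 5 fell, with a median of -0.014. The 25% called was near the 22% of all genes. Eif4ebp1, the repressor of cap-dependent initiation that mTOR phosphorylates, had 110.94, 107.93 and 99.66 CPM in old hearts, against 158.42, 171.05 and 138.23 CPM in young hearts. Rragd, a GTPase that brings mTOR complex 1 to lysosomes, had 83.05, 115.01 and 81.72 CPM in old hearts, against 145.78, 156.90 and 157.66 CPM in young hearts. They fell by 0.55 and 0.72 on the log2 scale (SE 0.10 and 0.12, edgeR adjusted p = 0.0019 for each). Both calls held whichever heart was left out, while the calls of the other 4 did not, and without old 1 or without young 3 the list had 0 genes called higher and 2 lower. Under library size alone 0 were called higher and 8 lower.

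**Figure D5:**
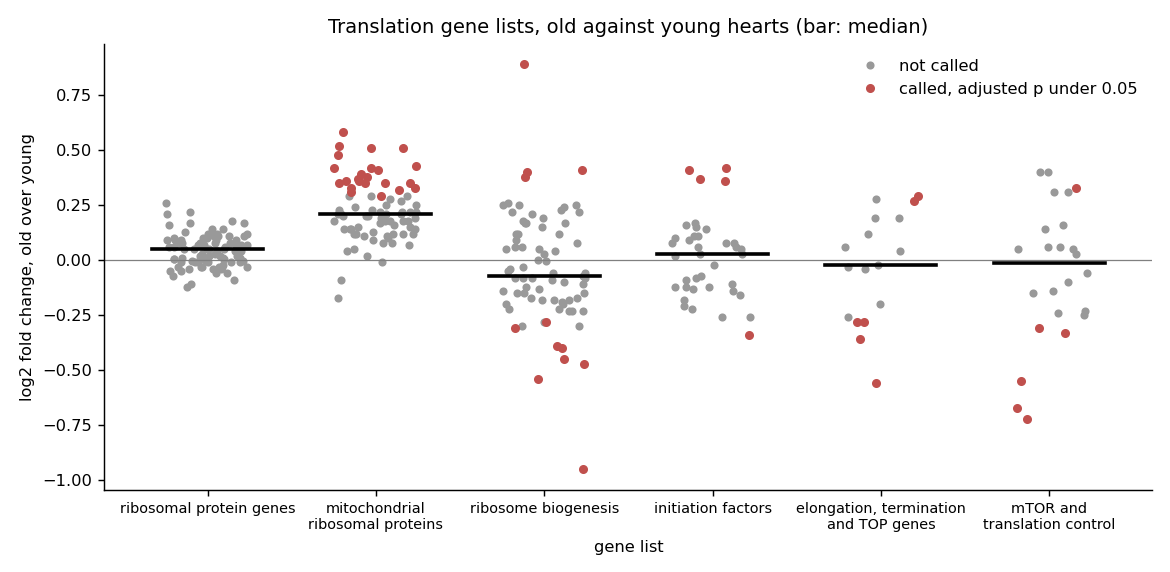
Log2 fold change of old over young hearts (vertical axis) for the tested genes of 6 lists (horizontal axis). Points are genes, red where called by edgeR at an adjusted p under 0.05, and bars are medians. The ribosomal protein genes hold 0 called points and lie between -0.12 and 0.26, and the mitochondrial ribosomal proteins have a median of 0.21 with 24 called.

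Markers of the cells in the tissue were read beside these results. Library totals lay between 11295280 and 12514005 counts. The summed level of 9 cardiomyocyte markers was 59290 to 62040 CPM in old and 58850 to 62020 CPM in young hearts. All 9 were detected. Within these like sums Tnni3 was called higher and Mybpc3 lower, at 0.35 and -0.59 on the log2 scale, and the others were not called. The sum of 5 atrial markers was 60.32 to 123.2 CPM in old and 342.5 to 416.0 CPM in young hearts without overlap, and most of it was Nppa, which fell by 2.32 on the log2 scale. The other 3 tested atrial markers were above 0, with Dkk3 called at 0.74 and Myl4 and Myl7 at 0.57 and 0.26, not called. They were at low levels, with means of 5.545, 3.919 and 0.9053 CPM in old and 3.303, 2.667 and 0.7393 CPM in young hearts. Sums for endothelial (7 genes), fibroblast (7), macrophage (7) and lymphocyte (8) markers overlapped between the groups, and no marker was at 0 in every heart. Single markers were called all the same: Cd3g, Cd3e, Cd68, C1qa and Lum rose, by 1.83, 1.59, 0.54, 0.36 and 0.28 on the log2 scale, and Kdr and Tcf21 fell by 0.54 and 0.51. Cd3g and Cd3e were at low levels, with means of 1.662 and 1.075 CPM in old and 0.4609 and 0.3605 CPM in young hearts. Of the macrophage markers 3 were above 0 and 4 below, as were the fibroblast markers, with medians of -0.062 and -0.042. The part of these cell types in the values above was not tested.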

How the data were processed

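Whole-heart RNA of 3 old and 3 young mice was sequenced from stranded mRNA libraries, per the labels' protocols. The deposited counts are whole reads per gene, and the authors' FPKM values derive from those counts, a gene length and the library total. The submitters' processing notes name Bowtie2, Cufflinks, DESeq, HISAT2, HTSeq, StringTie, Trimmomatic and the GRCm39 build, without versions or roles. Totals were 11295280 to 12514005 counts per library. Replicates differed by 7.9 to 16.7 in chi-square per degree of freedom over all genes, above sampling noise. Over the ribosomal protein genes it was 11.9 to 31.1 among old and 28.6 to 114.4 among young hearts. The labels tell the animals apart only by a number, so p-values measure the spread between these samples.

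The test was edgeR 4.0.16 (R 4.3.3), quasi-likelihood F, after filterByExpr and TMM scaling, on all 6 libraries and without covariates. P-values were adjusted by Benjamini-Hochberg across 12893 genes, and genes were called under 0.05. CPM values are TMM scaled. Measures with 1 value per library were compared by an exact 2-sided permutation test, which cannot go below 0.1. The fit was checked on simulated counts. The members, lists and tests were chosen with earlier results of these data known. Members named by rule are the stalk genes, Rpsa, Rpl3 and paralog pairs, the 5 of smallest p, and the 3 highest and 3 lowest by fold change and by FPKM, and from the other lists up to 6 called genes of smallest p. Genes taken by this rule that are not named here stay in the counts and medians. Alternatives were scaling by RLE, by upper quartile or by library size, other filters, a replicate block, each library left out, DESeq2 1.42.0, limma-voom (limma 3.58.1), limma on log2(FPKM + 1) or log2(FPKM + 0.1), and 2 settings added after seeing the data.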

Additional observations from a re-analysis of the deposited data

How the results depend on the processing

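The number of ribosomal protein genes called was 0 in every setting except 3. It was 1 with limma on log2(FPKM + 1) without a filter (Rps23rg1), 1 at an adjusted p under 0.1 (Rpl7l1) and between 0 and 2 when 1 heart was left out, the 2 without young 2. Their median log2 fold change lay between -0.027 and 0.13 when 1 heart was left out, and between -0.029 and 0.056 under the other settings planned. Over all genes, 1552 to 3041 were called when 1 heart was left out. Scaling to the core ribosomal protein counts gave 1385 calls and leaving out young 2 and young 3 together gave 389, both chosen after seeing the data. The second leaves 1 young heart, assumed to vary like the old hearts, from which its spread comes alone. The difference in the share of counts was 0.0794 percentage points against the TMM effective library size, and between -0.304 and 0.0791 when 1 heart was left out. The Rpl3l share of counts differed by 2.42 to 4.59 points when 1 heart was left out. Beyond the number of samples and genes, the cause of these shifts was not tested.

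Deviations of same-numbered hearts had an r over all genes of 0.08, 0.08 and 0.01, and those of differently numbered hearts -0.14 to 0.06. With 3 hearts per group these values cannot show whether the numbers pair the samples. With a replicate block 2734 genes were called in all and 0 ribosomal protein genes, with a median of 0.056. For the 57 named genes, 1140 comparisons with an alternative gave 0 reversals of a call, 131 losses of one and 3 gains, and 12 named members, not called, changed sign in at least 1 alternative.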

Other observations

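The 8 symbols with a pseudogene ending were counted in the tables beside the genes described. Rpl34-ps1 had 150, 118 and 153 counts in old hearts, against 138, 154 and 134 counts in young hearts, 847 in all. Rps12-ps24 had 133 counts over the 6 hearts, and each of the others had 80 or fewer.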
